A study of Mus musculus with 6 samples.

Results

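NF-kappaB is a family of transcription factors that drives inflammatory and survival genes, and 10 of its genes were followed in primary dermal fibroblasts. They are the 5 genes of the DNA-binding subunits (Nfkb1, Nfkb2, Rela, Rel and Relb), 4 genes of inhibitors and feedback regulators (Nfkbia, Nfkbie, Nfkbiz and Tnfaip3) and the adhesion gene Icam1, a classic target. The genes were chosen by name, with earlier results of these data known, as 10 of the 43629 genes in the deposited tables. Each matched 1 gene identifier. RNA had been sequenced from fibroblasts of newborn mouse skin, grown for 6 days to passage 1. The caNrf2 cultures came from 3 mice with Col1a2Cre plus caNrf2, a mutant Nrf2 that is always active; Nrf2 is the transcription factor of antioxidant and detoxification genes. The ctrl cultures came from 3 mice of the genotype Col1a2Cre-wt, which have Cre but no mutant. Cre was expressed in fibroblasts in all 6 mice, and the strain was mixed, 50% C57Bl/6 and 50% FVB/N. Each library was taken as 1 mouse. The sample names give only the group and a number, so the p-values measure the spread between these libraries.

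NF-kappaB proteins work as dimers. In resting cells inhibitors of the I-kappaB type keep most dimers in the cytoplasm. Signals from receptors for TNF, interleukin 1 and microbial products activate a kinase complex that marks these inhibitors for destruction, and a slower arm processes the Nfkb2 precursor so that it can pair with Relb. Dimers in the nucleus switch on cytokine, chemokine and adhesion genes, and also the genes of their own inhibitors, which closes a feedback loop. Much of this control acts on proteins, which RNA levels do not show.

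Libraries held 30168250 to 45164071 expected counts, and 15341 genes passed the filter on low counts, all 10 members among them. Levels are given as CPM, counts scaled to a common library size with TMM factors. A gene is said to be called when its adjusted p was under 0.05 in edgeR's quasi-likelihood test, adjusted by Benjamini-Hochberg over the whole table. By that rule 21.5% of genes were called, 12.5% higher and 9.03% lower in caNrf2. The 1385 lower genes became 823 when ctrl replicate 3 was left out and 864 when caNrf2 replicate 2 was. The median log2 fold change was -0.003. Nfe2l2, which encodes Nrf2, averaged 380 ± 43.2 CPM in caNrf2 and 109 ± 5.87 CPM in ctrl, and its target Nqo1 averaged 661 ± 78.6 CPM in caNrf2 and 26.1 ± 3.09 CPM in ctrl (SD, n = 3 each). All 10 fibroblast markers were tested in both groups, with a summed level of 27863 to 33763 CPM in caNrf2 and 38838 to 56697 CPM in ctrl. Most of this sum came from Col1a1, Col1a2, Col3a1 and Fn1, which were called lower, so it does not stand for the whole list. Of the 10 markers 2, Pdgfra and Thy1, were called higher and 5 lower. Without ctrl replicate 2 these counts were 1 and 2, and the lower ones numbered 2 without ctrl replicate 3 and 3 without caNrf2 replicate 2. All 18 macrophage and leukocyte markers were called higher, with summed levels of 195, 214 and 176 CPM in caNrf2 libraries and 24.3, 69.8 and 69.5 CPM in ctrl libraries, and no gene of that list was at 0 in all libraries. The 8 T and B cell markers summed to 0.369 to 0.622 CPM in caNrf2 and 0.282 to 0.424 CPM in ctrl. The part of leukocyte RNA in the results below was not tested. In such bulk samples fewer cells of a type and less RNA per cell cannot be told apart.

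Of the 10 NF-kappaB genes 1 rose and 1 fell in caNrf2 cultures. Tnfaip3, which encodes the feedback inhibitor A20, was 1.64-fold higher in caNrf2 cultures, and Icam1 fell to 0.628-fold of ctrl. The 5 subunit genes, Nfkbia, Nfkbie and Nfkbiz were not called. Of the 10 genes 20% were thus called, against 21.5% of all genes tested. The groups did not overlap in 6 of the 10 genes (60%), against 42.1% of all genes. In Tnfaip3 and Nfkbia all caNrf2 libraries lay above all ctrl libraries, an order found in 22% of all genes, and in Nfkb2, Rel, Relb and Icam1 all lay below, an order found in 20.1% of all genes. The median log2 fold change of the 10 genes was -0.01.

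**Figure D1:**
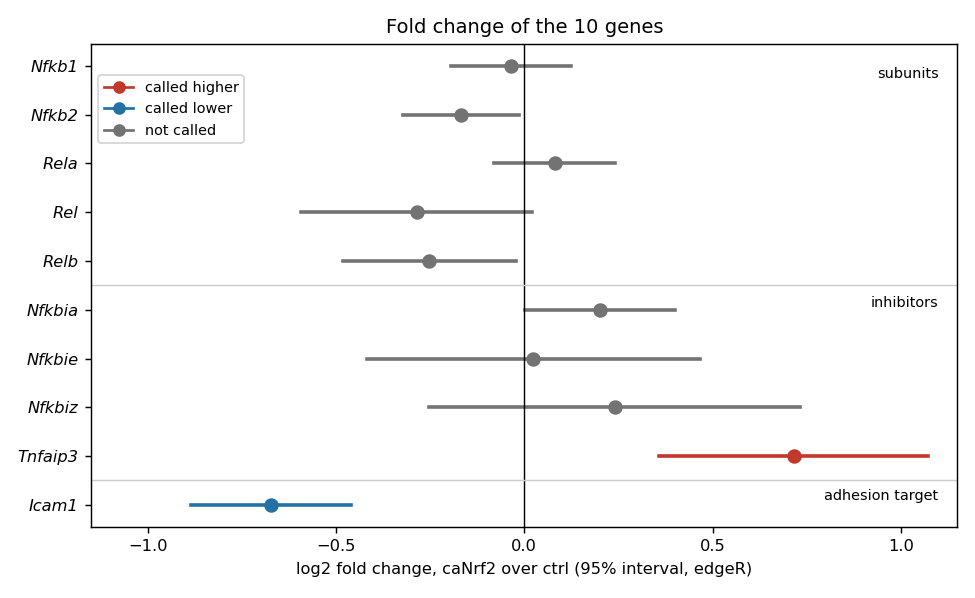
Log2 fold change of each of the 10 genes, caNrf2 over ctrl, on the x axis with its 95% interval from edgeR as a line, ordered by role from top to bottom. The interval of Tnfaip3 (0.36 to 1.07) lies above 0 and that of Icam1 (-0.88 to -0.46) below it. The uncalled genes, in grey, lie between log2 fold changes of -0.29 and 0.24. Among them the intervals, which are not adjusted for the number of genes, narrowly exclude 0 in Nfkb2 (-0.32 to -0.01), Relb (-0.48 to -0.02) and Nfkbia (0.001 to 0.40).

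The promoters of Tnfaip3, Icam1 and Nfkbia share a short run of letters, shown here because it includes both called genes. RefSeq promoter windows of 250 bases before a transcript start (GRCm38.p6) were at hand for 7 of the 10 genes, and not for Nfkb1, Nfkbiz and Relb. The motif GGAATTTCC, searched on both strands and picked after the letters of these windows had been seen, occurred in 3 of the 7 genes and in 3 of their 10 windows, since Nfkb2 and Tnfaip3 have several starts. Among all 32851 windows of this length 0.286% held it. Because the motif was picked from the members' own windows, this share is no test, and Nfkbia, which was not called, holds the motif too. Capitals mark the match, each stretch runs 5′ to 3′ on the gene's own strand, and in Icam1 and Nfkbia the match reads as the reverse complement, GGAAATTCC.
Icam1: acttcagtttGGAAATTCCtagatcgcagg
Tnfaip3: tcacgtgactGGAATTTCCatcggaaatcc
Nfkbia: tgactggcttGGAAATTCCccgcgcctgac
The Icam1 stretch lies at chr9:21015777-21015806 on the plus strand, 163 to 134 bases before the RefSeq start. The Tnfaip3 stretch lies at chr10:19015415-19015444 on the minus strand, 34 to 5 bases before the RefSeq start. The deposited tables begin the gene 247 bases further upstream, with a transcript that had 0 counts in all libraries, so the stretch lies within the gene as annotated there. The Nfkbia stretch lies at chr12:55492657-55492686 on the minus strand, 39 to 10 bases before the RefSeq start. The kappaB consensus motif was searched on both strands as the strict 10-base pattern GGGRNNYYCC (R is A or G, Y is C or T, N is any base). It occurred in 5 of the 7 genes (Tnfaip3, Rel, Nfkbia, Nfkbie and Nfkb2), which is 7 of their 10 windows, and in 7.25% of all windows. Its match overlapped the shared run in Nfkbia but not in Tnfaip3, and the strict pattern had no match in the Icam1 window. In Icam1 and Tnfaip3 the shared run misses this pattern only at an end base. The lack of a strict match there thus does not mean that the window lacks a kappaB-like site. The motif TGACNNNGC, the core of the element that Nrf2 binds, occurred in Nfkbia alone and in 10.2% of all windows. These matches describe letters and not bound sites. The whole Icam1 window, chr9:21015690-21015939 on the plus strand, places the capitals in their surroundings.
Icam1: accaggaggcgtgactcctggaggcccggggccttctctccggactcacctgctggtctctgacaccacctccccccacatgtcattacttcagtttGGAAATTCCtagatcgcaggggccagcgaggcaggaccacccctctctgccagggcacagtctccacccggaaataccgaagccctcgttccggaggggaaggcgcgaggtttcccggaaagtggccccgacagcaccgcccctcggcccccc

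Levels of different genes were compared per length, in TPM (transcript abundance corrected for length and scaled to a common total) summed over the transcripts of a gene. Averaged over all 6 libraries, Nfkb1 was the most abundant of the 10 at 67.5 TPM, and Rela followed at 49.6 TPM. Nfkb2 (33.6 TPM), Nfkbiz (31.0 TPM) and Nfkbia (30.4 TPM) came next, and their ranges over libraries overlapped. Icam1 (17.6 TPM) and Relb (13.8 TPM) overlapped in the same way. The lowest were Tnfaip3 (6.42 TPM), Rel (3.53 TPM) and Nfkbie (2.51 TPM), again with overlapping neighbours. The ranges did not overlap between Nfkb1 and Rela, Rela and Nfkb2, Nfkbia and Icam1, or Relb and Tnfaip3. In caNrf2 libraries Icam1 had 12.7 to 13.8 TPM and Relb 12.2 to 12.4 TPM, whereas in ctrl libraries Icam1 had 20.7 to 24.0 TPM and Relb 14.3 to 17.2 TPM.

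**Figure D2:**
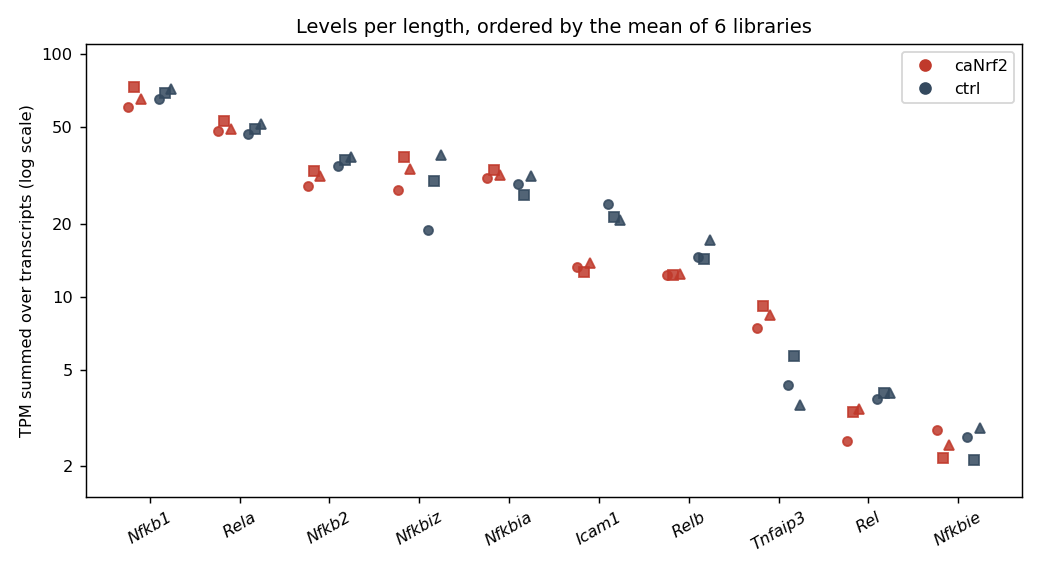
Level per length of the 10 genes in TPM on a log axis, ordered from left to right by the mean of all 6 libraries, with caNrf2 libraries left of ctrl libraries and circle, square and triangle for replicates 1, 2 and 3. Nfkb1 (60.6 to 72.8 TPM) and Rela (46.8 to 52.9 TPM) stand above the other genes, and the groups are apart at Nfkb2, Icam1, Relb, Tnfaip3 and Rel.

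None of the 5 subunit genes was called by edgeR, by DESeq2 or by limma-voom. Of them 2, Nfkb2 and Relb, had an unadjusted edgeR p under 0.05. Such values were common over all genes. Nfkbia, with an unadjusted edgeR p of 0.0487, ranked 5342 by adjusted p among the 15341 genes tested. Nfkb1 (ENSMUSG00000028163, chromosome 3, 135584655 to 135691547, minus strand, GRCm38) encodes a precursor cut to a DNA-binding subunit. Its level was 101, 108 and 101 CPM in caNrf2 libraries and 106, 103 and 108 CPM in ctrl libraries. The groups overlapped, with a log2 fold change of -0.04 (SE 0.07, 95% interval -0.19 to 0.12, edgeR adjusted p = 0.748). Rela (ENSMUSG00000024927, chromosome 19, 5637483 to 5648130, plus strand) encodes the subunit that carries most of the activating function. It had 75.4, 75.7 and 70.5 CPM in caNrf2 libraries and 66.8, 69.7 and 73.1 CPM in ctrl libraries, which overlap (log2 fold change 0.08, SE 0.07, 95% interval -0.08 to 0.24, edgeR adjusted p = 0.453). For both genes the intervals allow a difference of at most 0.24 on the log2 scale in either direction.

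The other 3 subunit genes were lower in every caNrf2 library than in any ctrl library, by amounts that did not pass the adjusted test. Nfkb2 (ENSMUSG00000025225, chromosome 19, 46304737 to 46312090, plus strand), the precursor gene of the slower arm, had 51.6, 54.4 and 51.8 CPM in caNrf2 libraries and 56.7, 59.4 and 61.2 CPM in ctrl libraries. Its log2 fold change was -0.17 (95% interval -0.32 to -0.01, edgeR adjusted p = 0.113). Relb (ENSMUSG00000002983, chromosome 7, 19606217 to 19629438, minus strand), the partner of the Nfkb2 product, had 15.6, 14.2 and 14.1 CPM in caNrf2 libraries and 16.3, 16.4 and 19.5 CPM in ctrl libraries. Here the nearest libraries of the groups almost met, and the log2 fold change was -0.25 (95% interval -0.48 to -0.02, edgeR adjusted p = 0.111). Rel (ENSMUSG00000020275, chromosome 11, 23741514 to 23770970, minus strand) encodes c-Rel, best known from lymphocytes. It had 4.11, 4.94 and 5.14 CPM in caNrf2 libraries and 5.58, 5.85 and 5.88 CPM in ctrl libraries (log2 fold change -0.29, 95% interval -0.59 to 0.02, edgeR adjusted p = 0.169). Its 152 to 223 counts in caNrf2 libraries and 178 to 262 counts in ctrl libraries were the fewest among the subunit genes.

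The makeup of the subunit pool is given as a description. Of the summed TPM of the 5 subunit genes, Nfkb1 made up 40.7 ± 0.991% in caNrf2 and 39.6 ± 0.246% in ctrl (SD, n = 3 each). Rela held 30.8 ± 0.747% in caNrf2 and 28.4 ± 0.0525% in ctrl. Nfkb2 held 19.0 ± 0.344% in caNrf2 and 20.9 ± 0.250% in ctrl. The share of Relb was 7.59 ± 0.504% in caNrf2 and 8.86 ± 0.577% in ctrl, and that of Rel was 1.91 ± 0.234% in caNrf2 and 2.27 ± 0.0538% in ctrl. The groups did not overlap in any of the 5 shares, narrowly so in Nfkb1, Rel and Relb. Shares sum to a whole, so they do not move independently, and they were not tested.

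Tnfaip3 was the called member among the inhibitors. Its product A20 edits ubiquitin chains on signalling adaptors and so shuts the pathway down after a stimulus, and the gene is a target of NF-kappaB. Tnfaip3 (ENSMUSG00000019850, chromosome 10, 19000910 to 19015657, minus strand) had 16.2, 20.1 and 16.6 CPM in caNrf2 libraries and 10.5, 13.1 and 8.56 CPM in ctrl libraries. All caNrf2 libraries stood above all ctrl libraries, and the gap between the nearest libraries was narrower than the range within either group. The means were 17.6 ± 2.13 CPM in caNrf2 and 10.7 ± 2.26 CPM in ctrl (SD, n = 3 each). The log2 fold change was 0.72 (SE 0.16, 95% interval 0.36 to 1.07, edgeR adjusted p = 0.0123). Per length its level was 8.32 ± 0.878 TPM in caNrf2 and 4.53 ± 1.06 TPM in ctrl. Leukocytes also express this gene. The leukocyte markers given above were higher in caNrf2 libraries, and the part of leukocyte RNA in the Tnfaip3 values was not tested.

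The I-kappaB genes were not called. Nfkbia (ENSMUSG00000021025, chromosome 12, 55489411 to 55492647, minus strand) encodes I-kappaB alpha, the inhibitor that is resynthesised fastest after activation. It had 27.2, 26.8 and 25.5 CPM in caNrf2 libraries and 23.4, 20.9 and 25.0 CPM in ctrl libraries. The groups just missed overlapping, and the log2 fold change of 0.20 (SE 0.09, 95% interval 0.001 to 0.40) did not pass the adjusted test (edgeR adjusted p = 0.140). Per length the groups did overlap, at 30.83, 33.35 and 31.59 TPM in caNrf2 libraries and 29.23, 26.27 and 31.39 TPM in ctrl libraries. Nfkbie (ENSMUSG00000023947, chromosome 17, 45555716 to 45563169, plus strand) encodes I-kappaB epsilon. It had 3.92, 2.75 and 3.11 CPM in caNrf2 libraries and 3.35, 2.68 and 3.60 CPM in ctrl libraries. These overlap throughout, and with 109 to 145 counts per library the interval was wide (log2 fold change 0.02, 95% interval -0.42 to 0.47, edgeR adjusted p = 0.944).

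Nfkbiz (ENSMUSG00000035356, chromosome 16, 55811375 to 55838899, minus strand) encodes I-kappaB zeta, a nuclear member of the family that helps to induce secondary inflammatory genes such as Il6. It had 57.6, 72.6 and 65.0 CPM in caNrf2 libraries and 35.7, 57.0 and 72.6 CPM in ctrl libraries. The ctrl libraries alone spanned the whole range, with ctrl replicate 1 the lowest of all 6 and ctrl replicate 3 level with the highest caNrf2 library. The mean was 65.1 ± 7.48 CPM in caNrf2 and 55.1 ± 18.5 CPM in ctrl, and the log2 fold change of 0.24 had a 95% interval of -0.25 to 0.73 (edgeR adjusted p = 0.467). Replicate 1 of ctrl was also the library with the lowest sum of leukocyte markers, and the part of this in the Nfkbiz values was not tested.

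**Figure D3:**
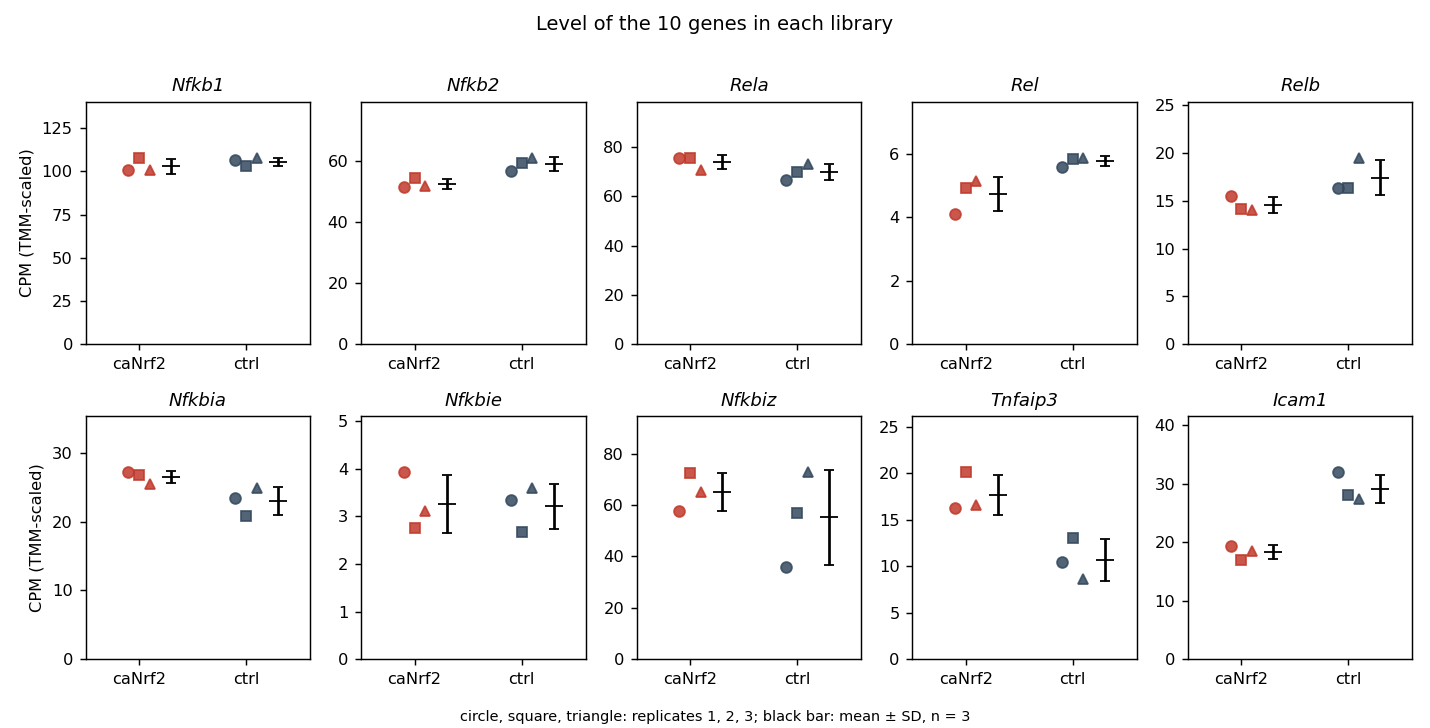
Level of each of the 10 genes in CPM (y axis from 0, its own scale per panel), with caNrf2 libraries left of ctrl libraries, a symbol per library and a black bar for mean ± SD (n = 3). The groups do not overlap in Tnfaip3 and Nfkbia, higher in caNrf2, and in Nfkb2, Rel, Relb and Icam1, lower in caNrf2. In Nfkbiz the ctrl libraries spread from 35.7 to 72.6 CPM.

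Icam1 was lower in caNrf2 cultures. It encodes a surface protein that leukocyte integrins bind, and it is induced through NF-kappaB by TNF and interleukin 1 in many cells, fibroblasts included. Icam1 (ENSMUSG00000037405, chromosome 9, 21015960 to 21028797, plus strand) had 19.4, 16.9 and 18.5 CPM in caNrf2 libraries and 31.9, 28.0 and 27.3 CPM in ctrl libraries. The highest caNrf2 library lay well under the lowest ctrl library. The means were 18.3 ± 1.23 CPM in caNrf2 and 29.1 ± 2.47 CPM in ctrl (SD, n = 3 each). The log2 fold change was -0.67 (SE 0.09, 95% interval -0.88 to -0.46, edgeR adjusted p = 0.00125). By adjusted p it ranked 700 among the 15341 genes tested. An annotated antisense gene, ENSMUSG00000097432, overlaps 491 exon bases of Icam1 (19.3%), and it held at most 2 expected counts in any library. Leukocytes express Icam1 too. Their markers were higher in caNrf2 libraries, and the part of leukocyte RNA in the Icam1 values was not tested.

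The called members were each matched with the 3 genes of most similar profile, by the root mean square difference of centred log2 CPM over the 6 libraries, among 10831 genes with a mean of at least 5 CPM. For Tnfaip3 these were Rab3ip (0.0712), the taurine transporter gene Slc6a6 (0.0750) and the tropomyosin gene Tpm1 (0.0752). For Icam1 they were Hmgcs1, an enzyme gene of cholesterol synthesis (0.0450), Ppp1r3d, which encodes a regulatory subunit of a phosphatase (0.0573), and Cdkn1b, which encodes a cell cycle inhibitor (0.0608). None of these 6 genes belongs to the NF-kappaB lists used here. Those lists held only 101 tested genes besides the members, few beside the 10831 compared, so this is no test.

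Transcripts within a gene were compared for the 5 members with at least 2 testable ones, Nfkb1, Nfkb2, Relb, Nfkbiz and Tnfaip3. None was called for a change in transcript usage by edgeR's diffSpliceDGE, with Simes or with the gene-level F test, against 0.726% of the 7992 genes tested with Simes. The 58 genes behind that share became 103, 118 and 109 without ctrl replicates 1, 2 and 3, and 90 and 91 without caNrf2 replicates 1 and 2. The smallest unadjusted Simes p was 0.065, for Tnfaip3. Its 2 main transcripts begin 3447 bases apart and share 4161 exon bases, so that 261 and 173 bases tell them apart. ENSMUST00000019997, which starts downstream of the promoter stretch shown above, had 2.43, 6.26 and 4.86 TPM in caNrf2 libraries and 3.80, 5.28 and 2.74 TPM in ctrl libraries, which overlap. ENSMUST00000105527, which starts within the gene at position 19011963, had 3.62, 1.69 and 1.49 TPM in caNrf2 libraries and 0.22, 0 and 0.63 TPM in ctrl libraries. For the internal start all caNrf2 libraries were above all ctrl libraries, an order found in 22% of all genes. Its share over transcripts was not taken. ENSMUST00000105527 took 56.8%, 19.6% and 20.9% of the Tnfaip3 counts in caNrf2 libraries and 4.90%, 0% and 16.8% in ctrl libraries. A RefSeq promoter window stands before this start as well, and it held no match to any of the 3 motifs.

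Relb showed a like pattern among its 9 annotated transcripts. ENSMUST00000098754 held 70.4%, 71.7% and 67.2% of the Relb counts in caNrf2 libraries and 86.9%, 77.5% and 78.6% in ctrl libraries. ENSMUST00000049912 held 19.3%, 10.8% and 20.1% in caNrf2 libraries and 3.31%, 6.37% and 6.34% in ctrl libraries. Both transcripts have groups that do not overlap, but diffSpliceDGE did not call Relb. Groups were also apart in 42.1% of all genes, and no such share was taken over transcripts. In Nfkbiz a single transcript, ENSMUST00000114458, held 97.5% to 99.0% of the counts in caNrf2 libraries and 98.4% to 99.6% in ctrl libraries. Without ctrl replicate 1 the usage of Nfkbiz was called (diffSpliceDGE adjusted p = 0.0218), with its minor transcript ENSMUST00000114457 at 0.52, 0.68 and 0.17 TPM in caNrf2 libraries and 0.14, 0 and 0 TPM in ctrl libraries.

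**Figure D4:**
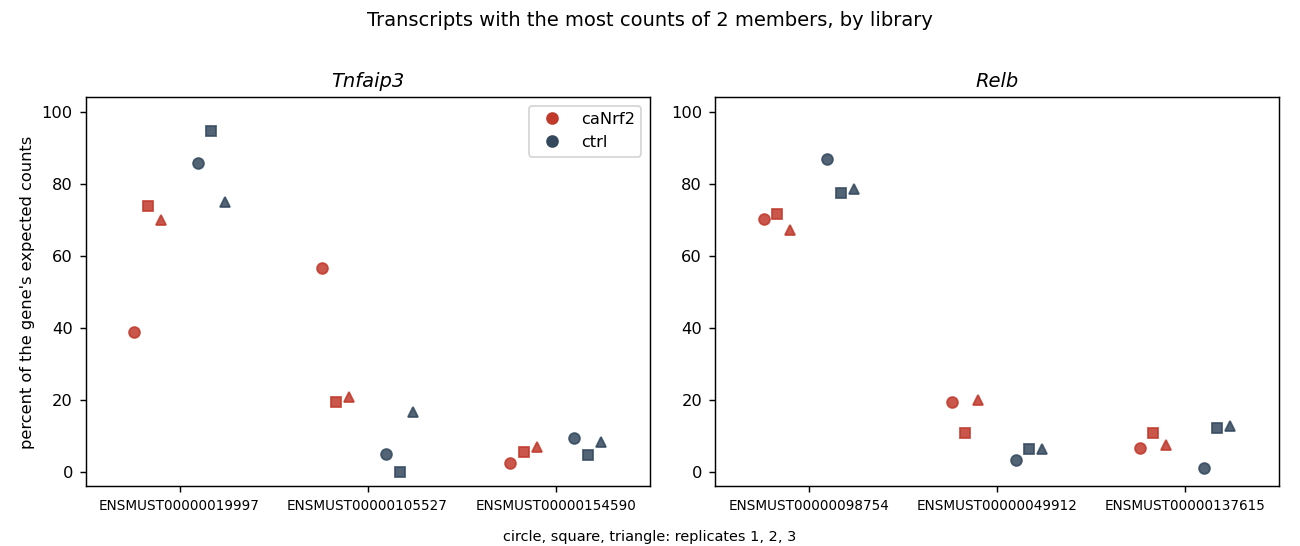
Percent of the expected counts of Tnfaip3 (left) and Relb (right) assigned to each of the 3 transcripts with the most counts, with caNrf2 libraries left of ctrl libraries and circle, square and triangle for replicates 1, 2 and 3. ENSMUST00000105527 of Tnfaip3 (19.6% to 56.8% in caNrf2, 0% to 16.8% in ctrl) and ENSMUST00000049912 of Relb (10.8% to 20.1% in caNrf2, 3.31% to 6.37% in ctrl) are higher in all caNrf2 libraries.

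Upstream of the 10 genes, most ligand genes were at very low levels. Of 12 ligand genes 5 passed the filter, and Tnf, Il1b, Lta, Ltb, Tnfsf13b, Tnfsf14 and Cd40lg did not. Over all genes tested edgeR called 21.5%. An unadjusted edgeR p under 0.05 was more common still, as the rank of Nfkbia given above shows. None of the 5 was called by edgeR as set out above or by limma-voom, although 3 had an unadjusted edgeR p under 0.05 and DESeq2 called Il33 lower (log2 fold change -0.65, DESeq2 adjusted p = 0.0244), a gene named here after its values were seen. In edgeR Il33 was also called lower with the replicate number as a block (log2 fold change -0.64, adjusted p = 0.0381), with upper-quartile factors (adjusted p = 0.044) and with no filter on low counts (adjusted p = 0.0291). The most abundant, Tnfsf12, had 8.34, 8.95 and 8.82 CPM in caNrf2 libraries and 9.08, 12.0 and 11.2 CPM in ctrl libraries (edgeR adjusted p = 0.114). Leaving out ctrl replicate 1 gave a call (log2 fold change -0.43, edgeR adjusted p = 0.0276). Without ctrl replicate 2, Tnfsf11 was called higher and Il33 lower (edgeR adjusted p = 0.0216 and 0.0286), again named after their values were seen.

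Receptor genes were called in both directions. Of 18 tested, 6 were higher and 4 lower (55.6% called, against 21.5% of all genes), with a median log2 fold change of 0.06. The list was chosen with earlier results of these data known, so this share is no test. Il1rl1, the receptor of interleukin 33, had 413, 550 and 463 CPM in caNrf2 libraries and 221, 220 and 179 CPM in ctrl libraries (2.30-fold, edgeR adjusted p = 0.000331). The endotoxin receptor gene Tlr4 rose by 0.66 and the flagellin receptor gene Tlr5 by 0.71 on the log2 scale (edgeR adjusted p = 0.00285 and 0.00446). Among the lower ones were Tnfrsf11a, which encodes RANK (-0.56), Cd40 (-0.80) and Tlr3, a receptor for double-stranded RNA (-0.79). Without caNrf2 replicate 3 the list had 3 higher and 1 lower call, and without caNrf2 replicate 2 it had 1 lower call. The lower calls were 2 without ctrl replicate 1 or ctrl replicate 3, and 2 with the replicate number as a block. These 3 named calls were each lost without single libraries. Tnfrsf11a had an adjusted p of 0.0506 without caNrf2 replicate 3. Cd40 had 0.0901 without ctrl replicate 3, 0.0872 without caNrf2 replicate 2 and 0.0592 without caNrf2 replicate 3 (adjusted p). Tlr3 had 0.0728 without ctrl replicate 1, 0.0778 without caNrf2 replicate 1 and 0.0757 without caNrf2 replicate 2 (adjusted p). Macrophages express several of these receptors, Tlr4 among them, and the leukocyte marker values above apply here as well.

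Of 28 adaptor and kinase genes tested, 3 were higher and 1 lower (14.3% called, against 21.5% of all genes), with a median log2 fold change of 0.04. Without ctrl replicate 1 the lower calls were 2. Ikbkg encodes NEMO, the regulatory subunit of the kinase complex that marks I-kappaB proteins. It had 272, 257 and 240 CPM in caNrf2 libraries and 107, 102 and 99.5 CPM in ctrl libraries (log2 fold change 1.32, SE 0.08, edgeR adjusted p = 1.05e-05). Ikbkg shares 418 exon bases (5.15%) with G6pdx on the other strand, which averaged 136 CPM in caNrf2 and 106 CPM in ctrl, and the strand setting of the counting is not given in the sources used here. Tbk1, which encodes a relative of the I-kappaB kinases, rose by 0.44 and Map3k14, the kinase gene of the slower arm, by 0.54 on the log2 scale (edgeR adjusted p = 0.0033 and 0.0045). Tab2, which encodes an adaptor that binds ubiquitin chains, fell by 0.30 (edgeR adjusted p = 0.0206) and lost its call without ctrl replicate 3 (adjusted p = 0.0758) or caNrf2 replicate 2 (adjusted p = 0.0658).

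Among 20 further inhibitors and regulators tested, 3 were higher and 1 lower (20% called, against 21.5% of all genes), with a median log2 fold change of 0.09. The higher calls were 6 with DESeq2 or with no filter on low counts, and 5 with the replicate number as a block. Bcl3, a nuclear relative of the I-kappaB proteins, averaged 26.7 ± 2.47 CPM in caNrf2 and 18.1 ± 2.55 CPM in ctrl (log2 fold change 0.56, edgeR adjusted p = 0.0106). Nlrc5 averaged 11.7 ± 1.55 CPM in caNrf2 and 7.85 ± 0.333 CPM in ctrl (log2 fold change 0.58, edgeR adjusted p = 0.0102). Cyld, a deubiquitinase gene that acts beside Tnfaip3, was higher by 0.40 on the log2 scale (edgeR adjusted p = 0.0371). Its call was lost without ctrl replicate 2 (adjusted p = 0.0984), ctrl replicate 3 (adjusted p = 0.122), caNrf2 replicate 2 (adjusted p = 0.128) or caNrf2 replicate 3 (adjusted p = 0.0683). Irak3, an inhibitor of signalling from interleukin 1 and Toll-like receptors, fell to 9.79 ± 0.693 CPM in caNrf2, against 14.8 ± 0.283 CPM in ctrl (log2 fold change -0.59, edgeR adjusted p = 0.00255).

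Target genes other than Icam1 were more often higher than lower. Of 30 tested, 12 were higher and 2 lower (46.7% called, against 21.5% of all genes), with a median log2 fold change of 0.39. Of all genes 12.5% were higher and 9.03% lower. This list too was chosen with earlier results of these data known, so its share is no test. Ptgs2, the inducible cyclooxygenase gene, had 333, 547 and 404 CPM in caNrf2 libraries and 32.6, 63.6 and 58.9 CPM in ctrl libraries (log2 fold change 3.05, SE 0.27, edgeR adjusted p = 0.000101). The complement gene C3 averaged 6.40 ± 0.305 CPM in caNrf2 and 3.18 ± 0.204 CPM in ctrl (log2 fold change 1.01, edgeR adjusted p = 0.000885). Csf3, a granulocyte growth factor gene, was called higher at very low levels (edgeR adjusted p = 0.0023). It had 0.369 to 0.631 CPM in caNrf2 libraries and 0.0223 to 0.0846 CPM in ctrl libraries. Bcl2a1b, named after its values were seen, was also called higher, at 0.325 to 0.586 CPM in caNrf2 libraries and 0 to 0.0661 CPM in ctrl libraries. Both genes passed the filter on low counts only through their caNrf2 libraries, so their calls do not stand apart from the filter. The chemokine gene Ccl7 fell to 115 ± 5.96 CPM in caNrf2, against 156 ± 5.20 CPM in ctrl (edgeR adjusted p = 0.00441), and Xiap, an inhibitor of caspases, to 72.5 ± 6.68 CPM in caNrf2, against 95.3 ± 6.78 CPM in ctrl (edgeR adjusted p = 0.0156). Several target genes are also expressed by leukocytes, whose 18 markers had a median log2 fold change of 1.89, and their part in the target list was not tested.

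**Figure D5:**
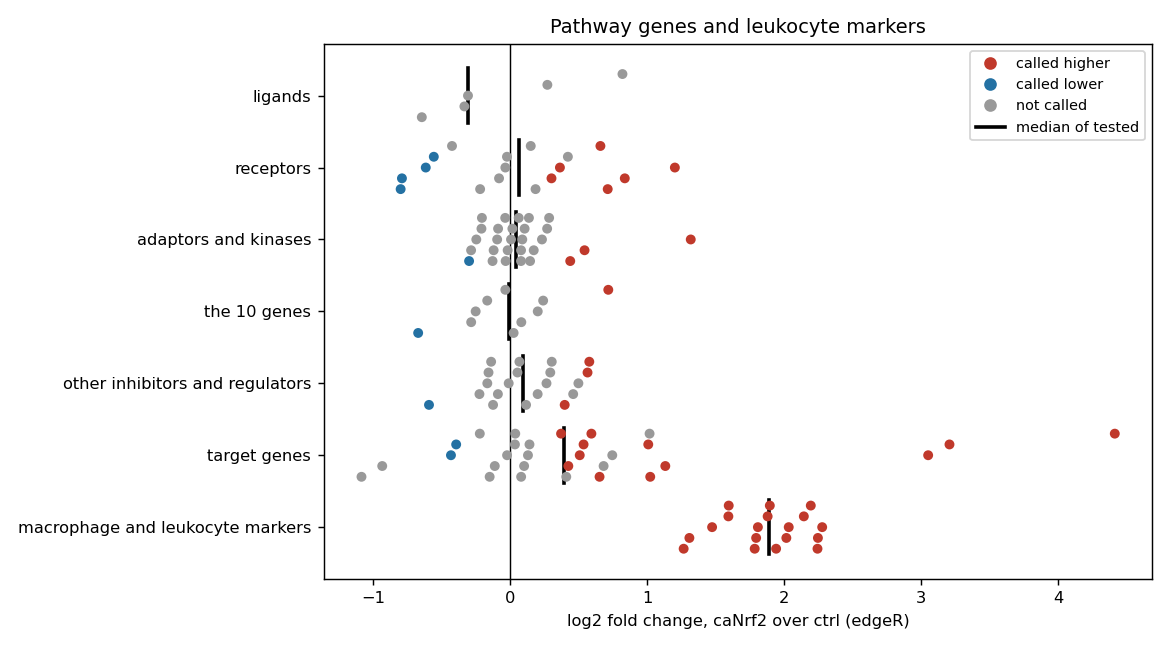
Log2 fold change, caNrf2 over ctrl, of each tested gene of the NF-kappaB lists and of the leukocyte markers, a point per gene (red called higher, blue called lower, grey not called) with a black line at the median of a list. The medians run from -0.31 for ligands and -0.01 for the 10 genes to 0.39 for target genes, and the leukocyte markers, all red, have a median of 1.89.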

How the data were processed

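Each library has a table by the authors of 104129 transcripts in 43629 genes. Per the file headers, the deposited values used are expected counts per transcript, which need not be whole, and TPM, transcripts scaled to a common total per library. RSEM 1.2.21, CASAVA 1.8 and GRCm38 stand in the submitters' processing notes. Not given in the sources used here are the aligner, annotation release and strand setting.

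Expected counts were summed per gene and rounded to whole numbers. TPM was summed per gene for levels only. A single count was worth 0.0223 to 0.0331 CPM. Symbols were found for 42462 gene identifiers. The comparison was made in R 4.3.3 with edgeR 4.0.16: filterByExpr (minimum count 10, minimum total 15), TMM, a two-sided quasi-likelihood F test, no replicate block, and Benjamini-Hochberg adjustment over all 15341 genes, with a threshold of 0.05. Standard errors and 95% intervals were derived from the F statistic. Transcript usage was tested with edgeR's diffSpliceDGE. Both tests were also run on simulated data, and the outcome is not given here. The simulated transcript counts had a single fixed dispersion and no error from dividing reads that transcripts share. CPM values are means ± SD, and log2 CPM for profiles had a prior count of 2. Coordinates are those of the deposited tables, counted from 1, and promoter windows come from RefSeq.

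Alternatives were DESeq2 1.42.0, limma-voom (limma 3.58.1), other scalings and filters, posterior mean and unrounded counts, each library left out and the replicate number as a block. Named genes are the 10 members, Nfe2l2 and Nqo1, per pathway list up to 3 called genes of smallest adjusted p in each direction or else the most abundant, and the 3 genes most like each called member. Of the cell type lists, the most abundant and the best-called gene are in the closing section, except for 1 list that is not reported here. The members and lists were chosen with earlier results of these data known.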

Additional observations from a re-analysis of the deposited data

How the results depend on the processing

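Icam1 and Tnfaip3 were the called members under all 16 alternatives of the gene comparison, and the other 8 members were called under none. The log2 fold change of Icam1 ranged from -0.72 to -0.61 (adjusted p 1.11e-07 to 0.00694) and that of Tnfaip3 from 0.58 to 0.89 (adjusted p 0.00027 to 0.0491, the highest without ctrl replicate 1). The sign of Nfkbie (-0.13 to 0.13) and Nfkbiz (-0.01 to 0.48) varied. Of the 543 results for 34 other named genes, 510 stayed on their side of the threshold, 29 lost a call, 4 gained one and 0 changed direction. Csf3 had no value under the stricter filter. The cause of these changes was not tested. Cyld was also lost with upper-quartile factors (0.36, adjusted p = 0.0508). Leaving out single libraries gave 823 to 1143 lower genes over all genes, against 1385, lowest without ctrl replicate 3 and 864 without caNrf2 replicate 2. It gave 77 to 118 genes called for transcript usage, against 58, and 0 to 1 members. The gene-level F test called 93 genes for usage. The Rela share in ctrl was 28.2% with posterior mean TPM, against 28.4%.

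With the replicate number as a block, 1888 genes were higher and 1330 lower, Icam1 had a log2 fold change of -0.67 (adjusted p = 0.00236) and Tnfaip3 of 0.73 (adjusted p = 0.00512). The block called 30 genes for transcript usage, and Tlr3 lost its call (-0.78, adjusted p = 0.0567). Deviations of same-numbered libraries correlated at 0.214, 0.209 and 0.0953. caNrf2 replicate 3 correlated best with ctrl replicate 2 (0.112), and all other unlike-numbered pairs lay between -0.242 and -0.0118. These values lean toward pairing by number, which the labels do not state. With 1 same-numbered pair at or under 0.1 the numbers were not taken to pair the libraries, and the block is given as an alternative. Depth limits Nfkbie (109 to 145 counts per library) and Rel (152 to 262) most among the members.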

Other observations

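Markers of other cell types were measured in the same libraries, in which 21.5% of all genes tested were called. Among leukocyte markers the most abundant, the lysozyme gene Lyz2, averaged 97.6 ± 9.82 CPM in caNrf2 and 26.5 ± 14.0 CPM in ctrl (edgeR adjusted p = 0.00735), and Cd53, the one of smallest adjusted p, averaged 2.85 ± 0.0532 CPM in caNrf2 and 0.693 ± 0.231 CPM in ctrl (edgeR adjusted p = 0.00073). Of 7 skeletal muscle markers tested 5 were higher, among them Acta1 (43.9 ± 2.44 CPM in caNrf2 and 24.5 ± 3.25 CPM in ctrl) and the most abundant, Myh3 (75.1 ± 13.1 CPM in caNrf2 and 47.3 ± 0.839 CPM in ctrl). Of 8 keratinocyte markers only Krt14 was called (121 ± 20.8 CPM in caNrf2 and 72.5 ± 18.7 CPM in ctrl), while Krt5 was the most abundant (135 ± 36.0 CPM in caNrf2 and 86.4 ± 24.5 CPM in ctrl). The call of Krt14 was lost without ctrl replicate 2 (adjusted p = 0.0596), ctrl replicate 3 (0.0751), caNrf2 replicate 2 (0.0706) or caNrf2 replicate 3 (0.0503). Krt5 was called without ctrl replicate 1 or caNrf2 replicate 1 (adjusted p = 0.0313 each) and with no filter on low counts (adjusted p = 0.0172). The keratinocyte list had 3 higher calls with no filter or without caNrf2 replicate 1. It had 2 with DESeq2 or without ctrl replicate 1. The endothelial markers had 1 call of 9, Cdh5, which was higher, and the pericyte markers 1 of 6, Abcc9, which was lower, with Cspg4 the most abundant (88.4 ± 16.9 CPM in caNrf2 and 106 ± 18.1 CPM in ctrl). Notch3, a pericyte marker named after its values were seen, was called higher with the replicate number as a block (log2 fold change 0.31, edgeR adjusted p = 0.0288), with the stricter filter (adjusted p = 0.0493), with DESeq2 (adjusted p = 0.0414) and without caNrf2 replicate 1 (adjusted p = 0.0302). Cdh5 lost its call without caNrf2 replicate 2 (adjusted p = 0.0503), and the endothelial list had 2 higher calls with no filter or with DESeq2. Cd4, the most abundant T and B cell marker, had at most 0.248 CPM in caNrf2 libraries and at most 0.0893 CPM in ctrl libraries. Among fibroblast markers the most abundant, Col1a1, fell to 11967 ± 762 CPM in caNrf2, against 17603 ± 3234 CPM in ctrl. Col1a2 fell to 8355 ± 836 CPM in caNrf2, against 13544 ± 2607 CPM in ctrl. Of the list 5 were called lower and 2 higher. The higher ones, named after their values were seen, were Pdgfra (1139 ± 52.6 CPM in caNrf2 and 855 ± 62.6 CPM in ctrl) and Thy1 (640 ± 15.8 CPM in caNrf2 and 484 ± 42.9 CPM in ctrl). Col1a1 was not called without ctrl replicate 2 or 3 or any single caNrf2 library (adjusted p 0.0513 to 0.0788).

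Ikbkg, called higher as a gene, had several transcripts at higher TPM in caNrf2. The most abundant in caNrf2, ENSMUST00000114128, had 56.3, 50.4 and 47.6 TPM in caNrf2 libraries and 10.7, 16.7 and 13.5 TPM in ctrl libraries. The longer ENSMUST00000064407 had 45.6, 42.0 and 41.5 TPM in caNrf2 libraries and 19.0, 18.6 and 17.3 TPM in ctrl libraries. ENSMUST00000114127 had 22.0, 30.8 and 26.0 TPM in caNrf2 libraries and 18.2, 14.0 and 16.4 TPM in ctrl libraries. In each of these 3 the groups did not overlap, as in 42.1% of all genes, and no such share was taken over transcripts.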
